A study of Mus musculus with 110 samples.

Results

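The 7 genes lipoprotein lipase (Lpl), Gpihbp1, Lmf1, Angptl4, Angptl8, Cd36 and Vldlr were followed in 4 tissues of male mice fed a control (Ctrl) or methionine-restricted (MetR) diet at room temperature (RT) or after cold exposure (CE). They were chosen by name, as the enzyme that clears plasma triglyceride, its platform, its maturation factor, its inhibitors and the receptors that take up its products and substrates, and they are 7 of the 56884 genes in the count tables. RNA was sequenced from liver, interscapular brown fat (iBAT), inguinal white fat (iWAT) and epididymal white fat (eWAT) of 28 wild-type C57BL/6N mice, 7 per group, which were 16 weeks old at the end and singly housed. Ctrl_RT and MetR_RT mice received the control diet (0.86% methionine by the sample labels) or the MetR diet (0.12% methionine) at 22 °C for 7 days, both diets lacking cysteine. Ctrl_CE and MetR_CE mice had the same 7 days of diet and then 24 h at 4 °C, so the cold cannot be told apart from the additional day of single housing and diet. The comparisons ask what each challenge does alone (Ctrl_CE and MetR_RT against Ctrl_RT), what both do together (MetR_CE), and whether the effect of cold depends on the diet (the interaction, the log2 change in the cold on the MetR diet minus that on the control diet).

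Lipoprotein lipase hydrolyses the triglyceride of chylomicrons and very-low-density lipoproteins (VLDL) on the wall of capillaries, so that each tissue decides through its own LPL how much lipid it draws from plasma. The enzyme is made by parenchymal cells, needs the endoplasmic reticulum protein LMF1 to fold into an active dimer, and is carried across endothelial cells and anchored in the lumen by GPIHBP1. ANGPTL4, a secreted protein that is high on fasting, and ANGPTL8, which is high after feeding, both restrain LPL, and CD36 and VLDLR take up the released fatty acids and triglyceride-rich particles. In brown fat exposed to cold, LPL activity is known to rise steeply, which makes this tissue a major site of triglyceride clearance.

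The 7 genes lie on 6 chromosomes of the mouse genome (GRCm38). Lpl is at chr8:68880491-68907448 and Vldlr at chr19:27216484-27254231, both on the plus strand. Angptl4 (chr17:33773750-33781830, minus strand) shares a chromosome with Lmf1 (chr17:25579085-25662826, plus strand). Angptl8 (chr9:21835510-21837347, plus strand) lies inside Dock6, which is on the opposite strand. The 2 genes share 0 exon bases, which matters because the library kit did not mark strand. Gpihbp1 is at chr15:75596628-75599481 (plus strand) and Cd36 at chr5:17781690-17888801 (minus strand).

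RefSeq promoter sequence for GRCm38 was found for 4 of the 7 genes. The promoters of Angptl8 and Vldlr are shown because these genes had the largest fold changes in fat and in liver, and that of Cd36 because it rose in liver in all 3 comparisons with Ctrl_RT. Each window holds the 250 bases before a start site, 5′ to 3′ on the strand of the gene, with the letters that match a searched motif in capitals.
Angptl8, chr9:21835260-21835509, plus strand: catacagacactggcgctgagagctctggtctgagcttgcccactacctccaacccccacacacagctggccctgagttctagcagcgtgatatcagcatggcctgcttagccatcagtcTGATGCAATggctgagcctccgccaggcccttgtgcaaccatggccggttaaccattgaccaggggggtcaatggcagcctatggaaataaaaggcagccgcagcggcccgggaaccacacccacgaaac
Vldlr, chr19:27216770-27217019, plus strand: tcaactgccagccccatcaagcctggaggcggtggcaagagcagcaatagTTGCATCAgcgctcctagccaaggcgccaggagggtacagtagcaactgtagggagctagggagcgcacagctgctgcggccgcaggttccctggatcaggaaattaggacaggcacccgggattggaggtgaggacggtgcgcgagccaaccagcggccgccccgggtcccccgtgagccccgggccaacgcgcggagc
Cd36, chr5:17835897-17836146, minus strand: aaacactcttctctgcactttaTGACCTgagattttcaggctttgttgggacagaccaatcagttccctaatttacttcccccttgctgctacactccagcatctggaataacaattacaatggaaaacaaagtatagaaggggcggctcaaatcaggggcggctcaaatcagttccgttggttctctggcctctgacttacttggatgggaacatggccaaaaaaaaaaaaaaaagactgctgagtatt

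The Angptl8 window holds TGATGCAAT at position -130 from the start, which matches the letters TGATGNAAT of the C/EBP-ATF composite element, a class of site that ATF4 and C/EBP proteins are known to bind. These letters occurred on either strand in 0.816% of the 32851 mouse promoters searched, each over the 250 bases before a start. The Vldlr window before the start of its coding transcripts holds TTGCATCA at position -200, the reverse strand of TGATGNAA, which is the same motif without its last base and occurred in 3.45% of promoters, and these shorter letters were chosen after the sequences had been seen. Of this window, 179 bases also fall in exon 1 of the retained-intron transcript Vldlr-204. The Cd36 window holds TGACCT at position -228, the reverse strand of the nuclear receptor half-site AGGTCA, found in 14.02% of promoters. This window lies inside the annotated gene, whose 5′ end is at 17888801, and which start was used in these tissues was not tested. The promoters of the 4 genes held no match to the PPAR direct repeat, the cyclic AMP element TGACGTCA, the glucocorticoid receptor palindrome, the E-box CACGTG or TATAAA on either strand, and these occurred in 0.0335%, 1.55%, 0.00913%, 6.02% and 12.4% of promoters. A match describes the letters of the window, and neither a match nor its absence says whether a factor binds there.

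The tables held 110 libraries, of which 105 were compared. The other 5 were left out, following the published analysis, and their values are given where they bear on a result. Total counts per library ran from 6987895 to 33444374 with the lowest in liver. Levels are CPM (read counts scaled to a common library size), normalized within a tissue, changes are log2 fold changes ± standard error (SE), and a change was called where the adjusted p of edgeR's quasi-likelihood test was under 0.05 and the change at least 1.5-fold. Groups held 7 libraries each, except 6 in iBAT Ctrl_RT, iBAT Ctrl_CE, iWAT MetR_CE and eWAT MetR_RT and 4 in eWAT Ctrl_RT. The 4 tissues carried their own markers. The 6 hepatocyte markers summed to at least 43211 CPM in every liver library, and the 7 brown adipocyte markers to at least 9621 CPM in every iBAT library. The 6 adipocyte markers summed to at least 5377 CPM in every iWAT library and 8489 CPM in every eWAT library. Skeletal muscle markers reached 1000 CPM in 3 iBAT and 9 iWAT libraries, with a highest sum of 20732 CPM in iWAT MetR_RT.

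On the control diet, cold raised Lpl in iBAT and iWAT, Gpihbp1, Cd36 and Vldlr in liver and Vldlr in iWAT, lowered Angptl4 in iBAT and eWAT, and moved Angptl8 in opposite directions in liver, where it fell, and the 3 fat depots, where it rose. Over the 28 pairs of gene and tissue, 12 changes were called in Ctrl_CE against Ctrl_RT, 9 of them higher in the cold, against 11% of all genes tested (4.64% higher) and 13.8% of genes with a mean of at least 1 CPM. MetR_RT changed 5 pairs, 4 of them upward, where 5.21% of all genes changed (1.89% higher) and 7.03% of those with at least 1 CPM. MetR_CE changed 12 pairs, 10 of them upward, where 12.7% of all genes changed (4.71% higher) and 15.7% of those with at least 1 CPM. These 3 comparisons share the Ctrl_RT libraries. By tissue and in the same order of comparisons, liver had 4, 3 and 5 of 7 called (all genes 11.9%, 6.91% and 13.5%), against 3, 0 and 3 in iBAT (14.7%, 2.50% and 14.7%), 3, 2 and 4 in iWAT (15.9%, 11.6% and 22.4%) and 2, 0 and 0 in eWAT (2.42%, 0.115% and 1.30%). For the 3 counts of 0, edgeR gave 2, 2 and 1 of 7 at an unadjusted p under 0.05, and DESeq2, with and without shrinkage, called 0 in each. The interaction was called for 2 pairs, Vldlr in liver and Angptl8 in eWAT, against 1.39% of all genes. MetR_CE differed from MetR_RT in 6 pairs and from Ctrl_CE in 3, against 3.71% and 3.36% of all genes.

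**Figure D1:**
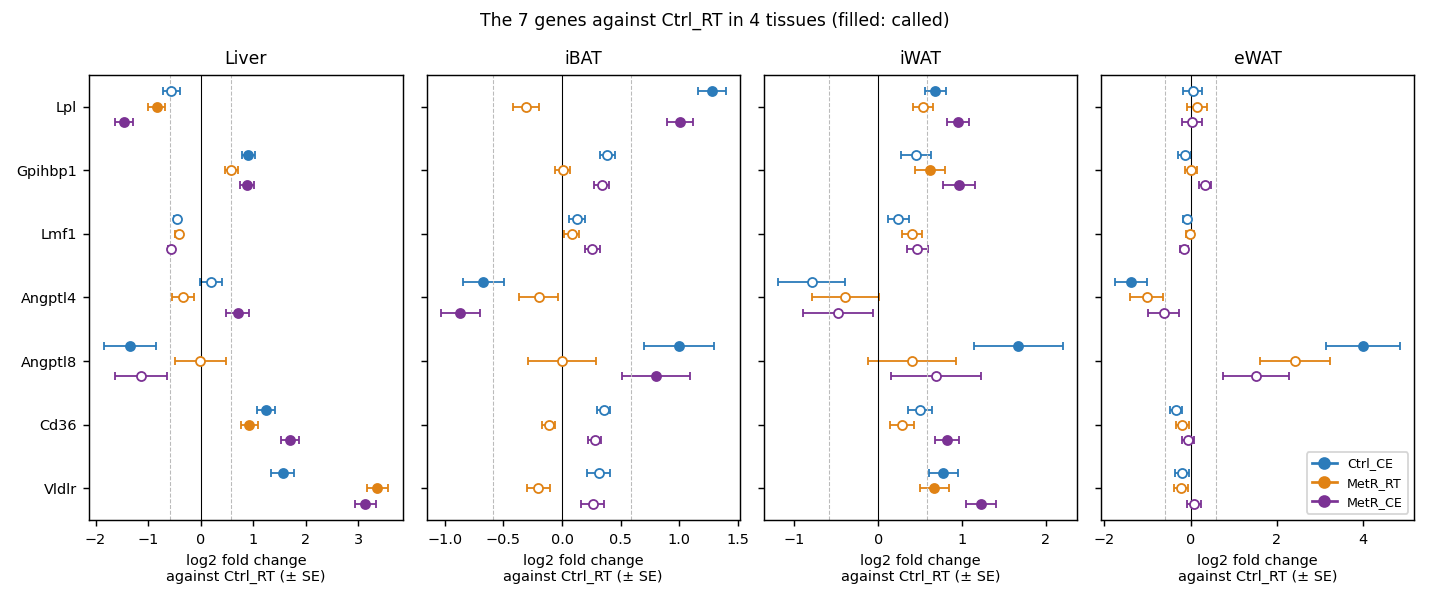
Log2 fold change (± SE) of the 7 genes in Ctrl_CE, MetR_RT and MetR_CE against Ctrl_RT, with 1 panel per tissue and its own horizontal scale. Filled points were called and dashed lines mark 1.5-fold. Lpl lies left of 0 in liver and right of 0 under cold in iBAT and iWAT, and Vldlr in liver and Angptl8 in eWAT reach the farthest.

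The tissues differed in the basal levels of these genes, by far the most for Lpl, Cd36 and Vldlr, which were scarce in liver, and the least for Lmf1. In Ctrl_RT, normalized over all 4 tissues together and divided by the length of all annotated exons, Lpl measured 772 CPM per kb in eWAT, 458 in iWAT, 370 in iBAT and 3.398 in liver. The 2 middle tissues of this order did not differ beyond their spread (log2 difference between iBAT and iWAT -0.31 ± 0.14 SE, adjusted p = 0.0773). Cd36 followed the same order, from 1042 CPM per kb in eWAT through 587 in iWAT and 582 in iBAT to 7.06 in liver, again with iBAT and iWAT indistinguishable (-0.01 ± 0.13 SE, adjusted p = 0.997). Gpihbp1 was likewise highest in eWAT, with 33.1 CPM per kb against 21.5 in iBAT, 16.6 in iWAT and 4.63 in liver, and all 6 tissue pairs differed. Vldlr was highest in iBAT, at 20.5 CPM per kb, with 8.16 in iWAT, 5.67 in eWAT and 0.123 in liver. The inhibitors and the maturation factor were distributed otherwise. Angptl8 was highest in liver, at 173 CPM per kb against 44.9 in iWAT, 43.6 in iBAT and 8.02 in eWAT, and iBAT and iWAT did not differ beyond their spread (-0.04 ± 0.54 SE, adjusted p = 1.0). The iWAT mean of Angptl8 includes 1 mouse at 167 CPM, normalized within iWAT, against 10.5 to 36.5 in the other 6. That mouse was also highest in liver (256.5 CPM against 42.7 to 174). It gave no iBAT library and its eWAT library was left out, so it enters the means of liver and iWAT only. Lmf1 was also highest in liver, at 5.32 CPM per kb, with 3.45 in iBAT, 1.73 in eWAT and 1.57 in iWAT, the last 2 indistinguishable. Angptl4 ran from 130 CPM per kb in eWAT and 88.3 in iWAT, which did not differ beyond their spread, to 50.02 in iBAT and 28.8 in liver. Of the 42 tests of 2 tissues in Ctrl_RT 37 passed an adjusted p of 0.05, against 45.5% of all such tests. Liver and eWAT each had a count table of their own, and iBAT and iWAT shared another. Between tissues of different tables, a tissue and its table cannot be told apart in these levels.

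Lpl, the enzyme itself, rose in the cold in iBAT on both diets and in iWAT on the control diet, and fell in liver with diet and cold. In iBAT it measured 2615 to 4697 CPM (median 3424) in Ctrl_RT and 6398 to 9836 CPM (median 8546) in Ctrl_CE. The MetR groups spanned 2509 to 3359.8 CPM (median 2779) at room temperature and 5980.0 to 8051 CPM (median 6649) in the cold. Every cold library lay above every library kept at room temperature, on either diet. Cold raised Lpl 2.42-fold on the control diet (1.28 ± 0.12 SE, adjusted p = 8.08e-10) and 2.48-fold on the MetR diet (1.31 ± 0.11 SE, adjusted p = 5.2e-10), the interaction being 0.03 ± 0.16 SE, adjusted p = 0.968. The diet alone changed iBAT Lpl by -0.30 ± 0.11 SE, adjusted p = 0.0969 and was not called. The summed brown adipocyte markers moved with Lpl in iBAT, from 9621 to 12665 CPM in Ctrl_RT to 17043 to 20134 in Ctrl_CE, and their part in the Lpl difference was not tested.

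In iWAT, Lpl measured 3979 to 6065 CPM (median 5872) in Ctrl_RT and 7352 to 10092 CPM (median 8986) in Ctrl_CE. Under MetR it measured 5421 to 10299.9 CPM (median 7697) at room temperature and 9879.9 to 11307 CPM (median 10774) in the cold. Both cold groups lay wholly above Ctrl_RT, while MetR_RT overlapped it with its lowest library. The increase was called in Ctrl_CE (0.68 ± 0.12 SE, adjusted p = 0.000165) and in MetR_CE (0.95 ± 0.13 SE, adjusted p = 2.16e-06), and in MetR_RT it passed the adjusted p but stayed under 1.5-fold (0.54 ± 0.12 SE, adjusted p = 0.00238). Cold on the MetR diet gave 0.42 ± 0.13 SE, adjusted p = 0.0556, with overlapping groups, and was not called. The interaction was not called either (-0.26 ± 0.18 SE, adjusted p = 0.466). Without the 9 iWAT libraries with muscle RNA the MetR_RT increase became 0.61 ± 0.18 SE, adjusted p = 0.0332, and was called. In iWAT all 7 brown adipocyte markers were called higher in each of the 3 comparisons. Their sum was 202 to 1032 CPM in Ctrl_RT, 1129 to 6920.1 in Ctrl_CE, 701 to 5748 in MetR_RT and 3773 to 8651 in MetR_CE. Of the 10 macrophage markers 8, 8 and 9 were called lower and 1, 0 and 1 higher, with sums of 1315.37 to 2477, 347 to 1627, 288.6 to 1206 and 239 to 548 CPM in the 4 groups in the same order. The 6 mural and fibroblast markers summed to 3531 to 10812 CPM in Ctrl_RT, 1042 to 5453 in Ctrl_CE, 1380.4 to 3657 in MetR_RT and 1081 to 1556 in MetR_CE, which lay wholly below Ctrl_RT, and 2, 2 and 3 of them were called lower and 0, 1 and 1 higher. The part of these lists in the iWAT differences was not tested.

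In eWAT, Lpl differed little between the groups. The 4 Ctrl_RT libraries held 10301, 10433, 9248 and 12216 CPM, and the other 3 groups ran from 7051 to 14404 CPM (median 11821) in Ctrl_CE through 9726 to 14240.0 CPM (median 11295) in MetR_RT to 8273 to 13156 CPM (median 10604) in MetR_CE. All groups overlapped, and the cold difference was 0.05 ± 0.22 SE, adjusted p = 0.959. The response to cold on the control diet was larger in iBAT than in eWAT by 1.23 ± 0.22 SE, adjusted p = 2.73e-05 and larger in iBAT than in iWAT by 0.61 ± 0.20 SE, adjusted p = 0.0333.

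**Figure D2:**
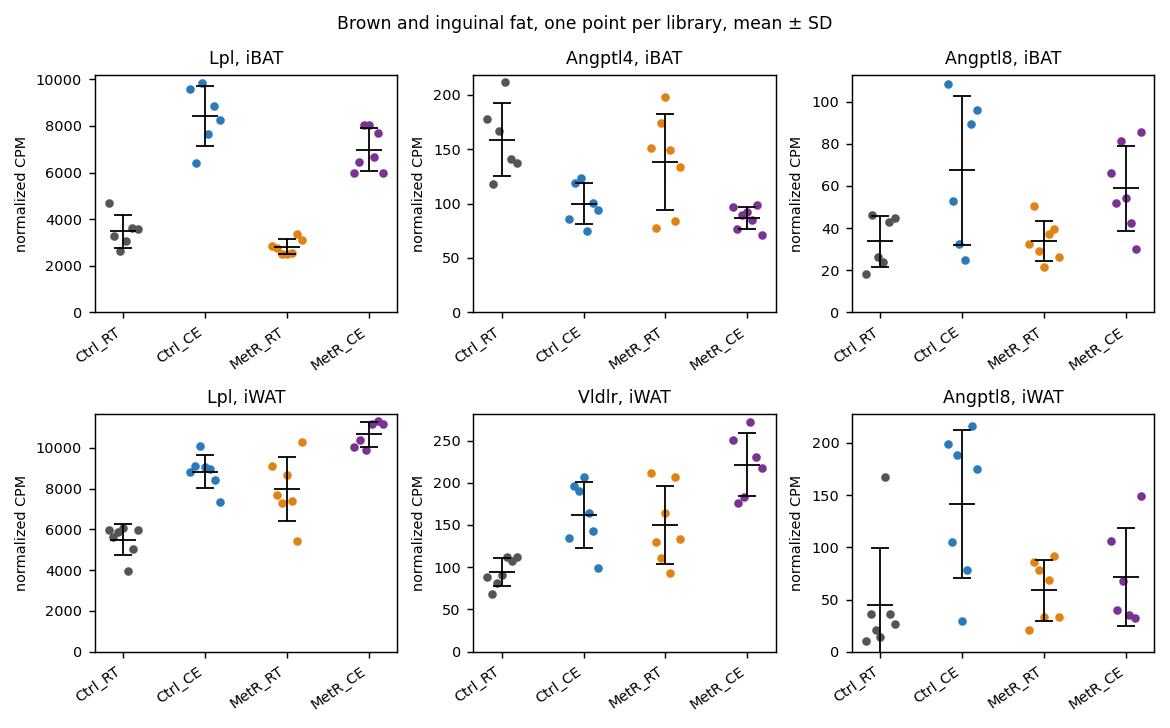
Normalized CPM per library in iBAT (upper row: Lpl, Angptl4, Angptl8) and iWAT (lower row: Lpl, Vldlr, Angptl8) by group, with 1 point per library, the mean as a horizontal bar and ± 1 SD, drawn from 0 on a linear axis. Cold libraries of iBAT Lpl lie at 5980.0 CPM or above and all others at 4697 or below, and 1 Ctrl_RT library of iWAT Angptl8 stands at 167 CPM, far above the other 6.

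In liver, where Lpl is low in adult animals, the direction was the opposite. Lpl measured 21.95 to 38.7 CPM (median 24.8) in Ctrl_RT, 14.1 to 26.1 CPM (median 17.7) in Ctrl_CE, 11.7 to 22.8 CPM (median 15.9) in MetR_RT and 7.55 to 14.6 CPM (median 9.93) in MetR_CE. The 7 MetR_CE libraries all lay below the 7 Ctrl_RT libraries, and the single challenges lay between and overlapped both. MetR_RT lowered Lpl 1.79-fold (-0.84 ± 0.17 SE, adjusted p = 0.000463) and MetR_CE 2.76-fold (-1.46 ± 0.17 SE, adjusted p = 9.02e-08). In Ctrl_CE the decrease passed the adjusted p but not the fold (-0.56 ± 0.16 SE, adjusted p = 0.0103). The interaction of -0.07 ± 0.24 SE, adjusted p = 0.927 was not called, and MetR_CE was below each single challenge (-0.63 ± 0.17 SE, adjusted p = 0.0102 against MetR_RT and -0.91 ± 0.17 SE, adjusted p = 0.000565 against Ctrl_CE). The cold response of liver and iBAT differed by -1.81 ± 0.21 SE, adjusted p = 4.66e-11. Macrophage markers, whose cells also express Lpl, summed to 319.9 to 433 CPM in Ctrl_RT, 327 to 989 in Ctrl_CE, 182.1 to 315 in MetR_RT and 328 to 374 in MetR_CE. Of the 10 macrophage markers 6 were called higher in Ctrl_CE, 5 were called lower in MetR_RT, and 1 was called higher and 2 lower in MetR_CE, where Lpl was lowest. Adipocyte markers were scarce in liver and lay wholly below Ctrl_RT in Ctrl_CE, with sums of 10.3 to 17.04 CPM in Ctrl_RT, 7.54 to 9.88 in Ctrl_CE, 8.04 to 17.7 in MetR_RT and 5.58 to 10.4 in MetR_CE. The 6 hepatocyte markers summed to 61354 to 92009, 53861 to 74356, 52251 to 74991 and 43211 to 52306 CPM in the same order, with MetR_CE wholly below Ctrl_RT. The part of these lists in the Lpl differences was not tested.

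**Figure D3:**
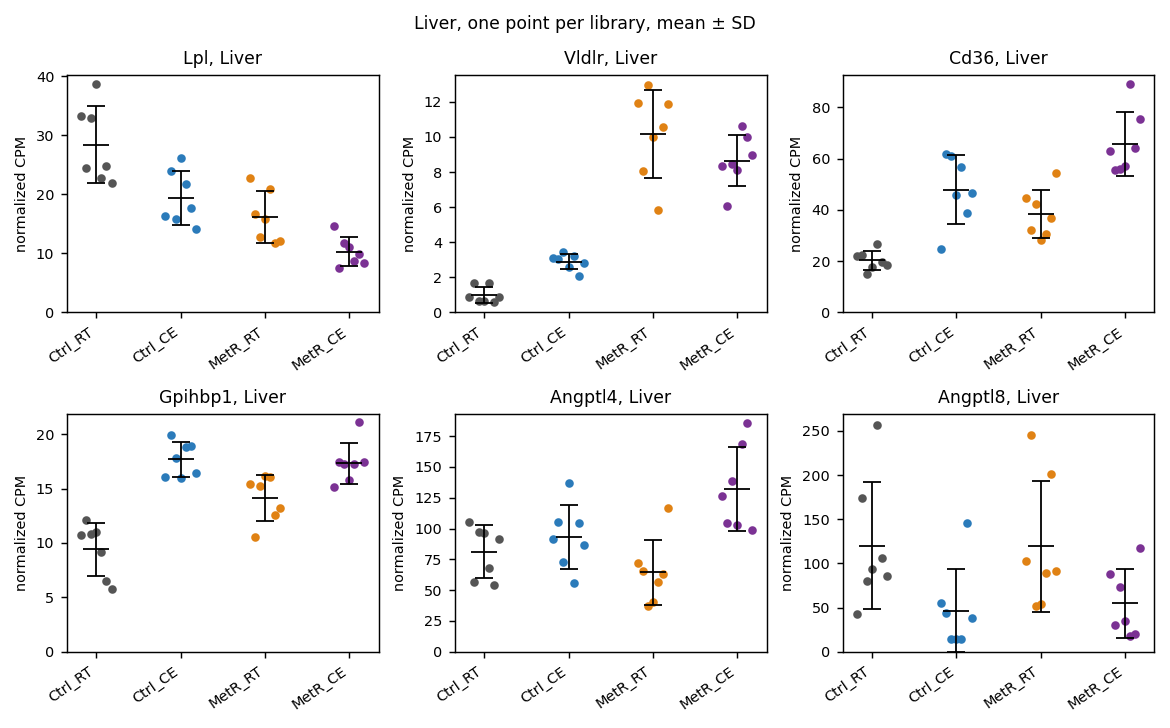
Normalized CPM per library in liver for Lpl, Vldlr, Cd36, Gpihbp1, Angptl4 and Angptl8 by group, with 1 point per library, the mean as a horizontal bar and ± 1 SD, drawn from 0 on a linear axis. Lpl steps down from Ctrl_RT to MetR_CE, Vldlr is highest in the 2 MetR groups, Cd36 is highest in MetR_CE, and Angptl8 spreads from 14.03 to 146 CPM within Ctrl_CE.

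Gpihbp1, the endothelial protein that carries LPL into the capillary lumen and holds it there, rose in liver and iWAT. In liver it measured 5.75 to 12.1 CPM (median 10.7) in Ctrl_RT and 15.9 to 19.9 CPM (median 17.8) in Ctrl_CE, with no overlap. MetR_RT held 10.5 to 16.2 CPM (median 15.3), overlapping Ctrl_RT, and MetR_CE held 15.2 to 21.1 CPM (median 17.3), above it. Both cold groups were called higher (0.91 ± 0.12 SE, adjusted p = 2.28e-06, and 0.88 ± 0.13 SE, adjusted p = 2.12e-06). The MetR_RT difference was just under the fold (0.58 ± 0.13 SE, adjusted p = 0.00115). Of 10 endothelial markers 8, 4 and 9 were also called higher in liver in Ctrl_CE, MetR_RT and MetR_CE, and of 6 sinusoidal endothelial markers 6, 1 and 6. The endothelial sum was 132 to 179 CPM in Ctrl_RT, 226 to 344 in Ctrl_CE, 189 to 234 in MetR_RT and 307 to 334 in MetR_CE, and its part in the Gpihbp1 difference was not tested. In bulk tissue, more cells of a type and more RNA of a gene per cell cannot be told apart.

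In iWAT, Gpihbp1 measured 30.4 to 66.02 CPM (median 51.7) in Ctrl_RT, 42.7 to 85.7 CPM (median 67.2) in Ctrl_CE, 51.003 to 101 CPM (median 80.3) in MetR_RT and 68.8 to 119 CPM (median 92.3) in MetR_CE. Only MetR_CE lay wholly above Ctrl_RT. MetR_RT and MetR_CE were called (0.62 ± 0.18 SE, adjusted p = 0.0136, and 0.96 ± 0.19 SE, adjusted p = 0.000177), and Ctrl_CE was not (0.45 ± 0.18 SE, adjusted p = 0.0589). The MetR_RT call was lost without the iWAT libraries with muscle RNA (adjusted p = 0.0641), and without Ctrl_RT replicate 5 it fell under the fold at 0.56. Of the endothelial markers 0, 1 and 3 of 10 were called higher in iWAT. In iBAT, cold raised Gpihbp1 by less than the fold (0.39 ± 0.07 SE, adjusted p = 2.69e-05). In eWAT no comparison with Ctrl_RT was called, but with the left-out libraries included MetR_CE was called higher (0.66 ± 0.18 SE, adjusted p = 0.0207). In the kept eWAT libraries MetR_CE exceeded Ctrl_CE by less than the fold and was not called (0.47 ± 0.12 SE, adjusted p = 0.0126).

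Lmf1, which matures LPL in the endoplasmic reticulum, moved within a narrow range and was never called. Its liver groups were separated all the same. Ctrl_RT held 53.3 to 66.8 CPM (median 55.9), and Ctrl_CE, MetR_RT and MetR_CE held 39.3 to 48.5 CPM (median 41.9), 38.9 to 47.7 CPM (median 42.2) and 34.8 to 41.8 CPM (median 40.1). Each of the 3 challenged groups lay wholly below Ctrl_RT. The decreases were 1.37-fold (-0.45 ± 0.06 SE, adjusted p = 1.11e-06), 1.34-fold (-0.42 ± 0.06 SE, adjusted p = 4.74e-06) and 1.48-fold (-0.57 ± 0.06 SE, adjusted p = 1.18e-08), all under 1.5-fold. In iWAT Lmf1 was slightly higher in MetR_RT and MetR_CE (0.41 ± 0.12 SE, adjusted p = 0.0151, and 0.46 ± 0.13 SE, adjusted p = 0.00425). The response of liver differed from that of iWAT in all 3 comparisons, by up to -1.03 ± 0.12 SE, adjusted p = 4.79e-11 in MetR_CE.

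Angptl4, the inhibitor that fat secretes on fasting, fell in the cold in iBAT on both diets and in eWAT on the control diet, and rose in liver in MetR_CE alone among the comparisons with Ctrl_RT. In iBAT it measured 118 to 211 CPM (median 154) in Ctrl_RT, 74.7 to 123 CPM (median 97.4) in Ctrl_CE, 77.9 to 198 CPM (median 149.5) in MetR_RT and 70.7 to 98.2 CPM (median 89.3) in MetR_CE. MetR_CE lay wholly below Ctrl_RT, and Ctrl_CE overlapped it at its upper end. Cold lowered Angptl4 1.59-fold on the control diet (-0.67 ± 0.17 SE, adjusted p = 0.00285) and 1.59-fold on the MetR diet (-0.67 ± 0.16 SE, adjusted p = 0.00204), so that in iBAT the enzyme and this inhibitor moved in opposite directions under cold on both diets. The other inhibitor, Angptl8, rose with Lpl in iBAT, by 0.999 (adjusted p = 0.00994) on the control diet and 0.80 (adjusted p = 0.0334) on the MetR diet. Both Angptl8 calls were lost when 3 iBAT libraries with a conflicting sample tag were left out (adjusted p = 0.0507 and 0.0763).

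In eWAT, the 4 Ctrl_RT libraries held 712, 444, 519 and 723 CPM of Angptl4. Ctrl_CE held 122 to 389 CPM (median 246), MetR_RT 141 to 564 CPM (median 208) and MetR_CE 203 to 632 CPM (median 343). Ctrl_CE lay wholly below Ctrl_RT and the MetR groups overlapped both. The cold decrease was called (-1.38 ± 0.36 SE, adjusted p = 0.0287). The MetR_RT difference was not (-1.01 ± 0.38 SE, adjusted p = 0.371), nor was that of MetR_CE (-0.62 ± 0.37 SE, adjusted p = 0.453). Cold on the MetR diet gave a difference of the other sign that was not called (0.39 ± 0.33 SE, adjusted p = 0.651), and the interaction was just outside the threshold (1.77 ± 0.49 SE, adjusted p = 0.0504). DESeq2 called this interaction with and without shrinkage (adjusted p = 0.00658), as did edgeR with its own expression filter (adjusted p = 0.0384). In all it was called in 9 of 32 alternative settings. The cold call was lost with all libraries included (-0.96, adjusted p = 0.103) and without any one of Ctrl_RT replicates 1 and 7 and Ctrl_CE replicates 1, 6 and 7. In iWAT, Angptl4 spread from 44.96 to 589 CPM (median 423) in Ctrl_RT and was not called in any comparison (-0.79 ± 0.40 SE, adjusted p = 0.141 in Ctrl_CE). The lowest of those values belongs to replicate 5, and without it the cold decrease in iWAT was called (-0.99 ± 0.34 SE, adjusted p = 0.0286).

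In liver, Angptl4 measured 53.9 to 105 CPM (median 91.7) in Ctrl_RT, 55.8 to 137 CPM (median 91.1) in Ctrl_CE, 37.1 to 117 CPM (median 63.4) in MetR_RT and 98.8 to 186 CPM (median 126) in MetR_CE. The groups overlapped throughout. MetR_CE was called against Ctrl_RT (0.70 ± 0.21 SE, adjusted p = 0.0117) and against MetR_RT (1.03 ± 0.21 SE, adjusted p = 0.000765), whereas cold on the control diet gave 0.20 ± 0.21 SE, adjusted p = 0.544. The interaction of 0.84 ± 0.30 SE, adjusted p = 0.151 was not called, so a difference between the diets in the cold response is not shown. The MetR_CE response of liver exceeded that of iBAT by 1.58 ± 0.44 SE, adjusted p = 0.00587.

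Angptl8, the feeding-responsive inhibitor, fell in liver and rose in all 3 fat depots with cold on the control diet. In liver it measured 42.7 to 256.5 CPM (median 93.6) in Ctrl_RT, 14.03 to 146 CPM (median 37.96) in Ctrl_CE, 52.1 to 245.004 CPM (median 90.9) in MetR_RT and 17.9 to 118 CPM (median 34.8) in MetR_CE. All groups overlapped. The decrease in Ctrl_CE was called (-1.35 ± 0.50 SE, adjusted p = 0.0402), and that in MetR_CE was not (-1.14 ± 0.50 SE, adjusted p = 0.0839). The call of the first depended on the fit: with only the compared groups in the model its adjusted p was 0.0537 and that of MetR_CE 0.0408. Without Ctrl_CE replicate 6, the library at 146 CPM, the Ctrl_CE decrease was larger (-1.97 ± 0.48 SE, adjusted p = 0.00229).

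In iBAT, Angptl8 rose from 18.5 to 46.1 CPM (median 34.6) in Ctrl_RT to 25.04 to 108 CPM (median 70.999) in Ctrl_CE (0.999 ± 0.30 SE, adjusted p = 0.00994). MetR_RT held 21.6 to 50.4 CPM (median 32.3) and MetR_CE 29.9 to 85.5 CPM (median 54.5) (0.80 ± 0.29 SE, adjusted p = 0.0331 against Ctrl_RT). The cold groups overlapped the others at their lower ends. Both calls were lost when the 3 iBAT libraries whose sample tag names another group than their title were left out (adjusted p = 0.0507 and 0.0524) or grouped by that tag (0.0530 and 0.0767). In iWAT, Ctrl_RT held 10.5 to 167 CPM (median 26.5) and Ctrl_CE 29.2 to 217 CPM (median 175) (1.67 ± 0.53 SE, adjusted p = 0.0175). MetR_RT held 20.3 to 91.9 CPM (median 68.3) and MetR_CE 32.3 to 149.6 CPM (median 53.7), and neither was called. The highest Ctrl_RT library, replicate 5, decides the last 2 calls and the size of the first. Without it the increase in Ctrl_CE was 2.55 ± 0.47 SE, adjusted p = 0.000159, and Angptl8 was higher also in MetR_RT (1.28 ± 0.45 SE, adjusted p = 0.0388) and in MetR_CE (1.56 ± 0.46 SE, adjusted p = 0.00851), with an interaction of -2.26 ± 0.63 SE, adjusted p = 0.0302. Without the libraries with muscle RNA the Ctrl_CE call was lost (1.69 ± 0.66 SE, adjusted p = 0.0718).

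In eWAT, Angptl8 was low in Ctrl_RT and spread widely in the other groups. The 4 Ctrl_RT libraries held 7.59, 12.3, 7.08 and 9.21 CPM. Ctrl_CE held 11.1 to 287.96 CPM (median 134), MetR_RT 4.46 to 104 CPM (median 46.7) and MetR_CE 6.95 to 56.9 CPM (median 20.6). Of the 7 Ctrl_CE libraries 6 lay above all Ctrl_RT libraries and 1 among them, and the MetR groups overlapped both. Cold raised Angptl8 15.9-fold on the control diet (3.99 ± 0.86 SE, adjusted p = 0.00921), whereas on the MetR diet the cold difference was -0.89 ± 0.62 SE, adjusted p = 0.575. The interaction was called (-4.88 ± 1.04 SE, adjusted p = 0.0140), as was MetR_CE against Ctrl_CE (-2.47 ± 0.63 SE, adjusted p = 0.0119). The response to cold on the control diet was higher in eWAT than in liver, the difference between liver and eWAT being -5.29 ± 0.90 SE, adjusted p = 7.18e-06. With the 4 left-out eWAT libraries included, the cold increase (2.26, adjusted p = 0.0658), the interaction (-2.93, adjusted p = 0.277) and the difference in the cold (-2.44, adjusted p = 0.0961) kept their directions and lost their calls. The eWAT libraries also varied in markers of epididymal epithelium, which summed to 11.9 to 359 CPM in Ctrl_RT, 20.8 to 379 in Ctrl_CE, 20.2 to 107 in MetR_RT and 2.72 to 288.6 in MetR_CE, and in muscle markers, at 22.9 to 426 CPM in Ctrl_RT against at most 34.7 in the other groups. Their part in these results was not tested.

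**Figure D4:**
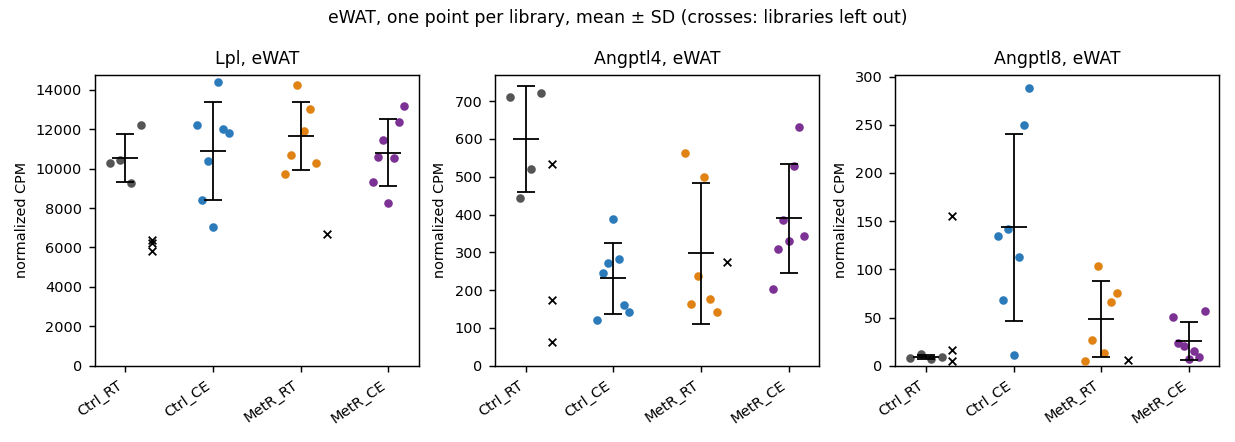
Normalized CPM of Lpl, Angptl4 and Angptl8 in eWAT by group, with 1 point per library, the mean as a horizontal bar and ± 1 SD of the kept libraries, drawn from 0 on a linear axis. Crosses are the 4 libraries left out, normalized together with all eWAT libraries, and 1 of the 3 in Ctrl_RT stands at 156 CPM of Angptl8, above the 4 kept Ctrl_RT libraries.

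Because each mouse gave several tissues, the 2 inhibitors could be compared within animals. After each group's mean was subtracted, the log2 level of Angptl8 in iWAT tracked that in eWAT of the same mouse (Pearson r = 0.86, Spearman rho = 0.84 over 27 mice), and Angptl4 did so too (r = 0.89, rho = 0.86). Without the 2 mice farthest from the median in iWAT the r values were 0.77 and 0.83, and without the left-out libraries, over 23 mice, 0.79 and 0.79. Angptl8 in liver likewise tracked that in iBAT (r = 0.83 over 27 mice, 0.82 without the 2 farthest mice), while Angptl4 in liver did not track that in iBAT (r = -0.09). The same measure between iWAT and eWAT was -0.05 for Lpl, 0.35 for Gpihbp1, 0.08 for Lmf1, 0.14 for Cd36 and 0.11 for Vldlr over all 27 mice. Over the 23 mice without left-out libraries it was 0.07, 0.61, 0.14, 0.40 and 0.12 in the same order. Within 1 tissue the inhibitors ran against each other. Their within-group r was -0.76 over 27 libraries in iWAT and -0.74 over 24 in eWAT (both -0.65 without the 2 libraries farthest in Angptl4), -0.44 over 26 in iBAT and -0.04 over 28 in liver. These points share their mouse, and those of 1 tissue also their library and its normalization. The values describe these animals and were given no test.

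**Figure D5:**
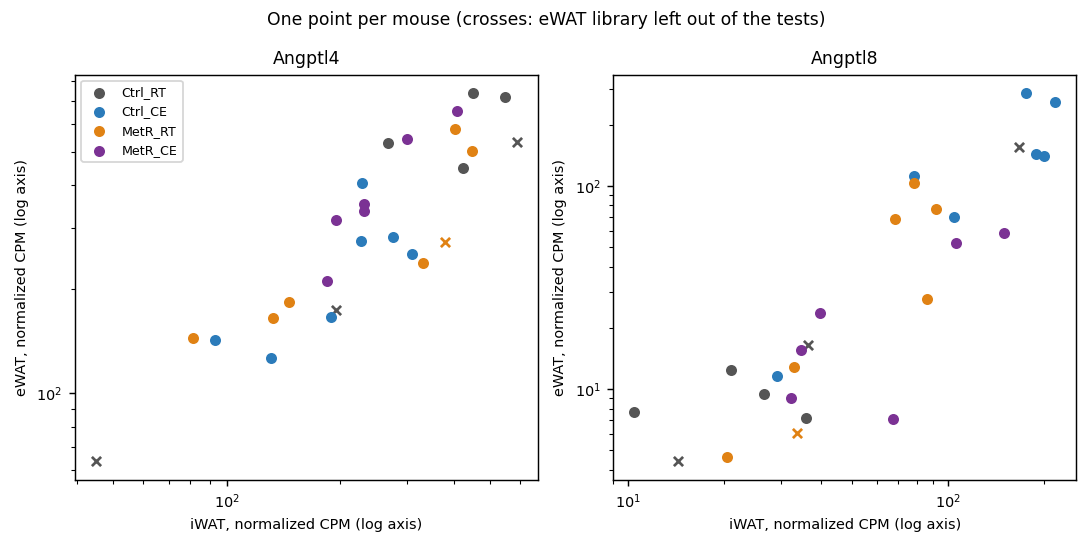
Normalized CPM of Angptl4 (left) and Angptl8 (right) in iWAT (horizontal) and eWAT (vertical) of the same 27 mice, both on log axes, coloured by group, with crosses for mice whose eWAT library was left out of the tests. Both clouds run upward, and 1 Ctrl_RT mouse lies at the low end for Angptl4 (44.96 and 63.5 CPM) and near the high end for Angptl8 (167 and 156 CPM).

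A single Ctrl_RT mouse stood apart in several tissues. It gave replicate 5 of liver, iWAT and eWAT, the last being one of the left-out libraries, and no iBAT library. Its Angptl8 was 256.5 CPM in liver (42.7 to 174 in the other 6 Ctrl_RT mice), 167 in iWAT (10.5 to 36.5) and 156 in eWAT (4.40 to 16.4). Its Angptl4 was 44.96 CPM in iWAT (195 to 589 in the others) and 63.5 in eWAT (173 to 739), and in liver it was 67.7, within the others' 53.9 to 105.

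Cd36, the receptor that brings released fatty acids into cells, rose in liver under each challenge. It measured 14.97 to 26.7 CPM (median 19.6) in Ctrl_RT, 24.8 to 61.9 CPM (median 46.5) in Ctrl_CE, 28.3 to 54.5 CPM (median 36.7) in MetR_RT and 55.7 to 89.2 CPM (median 63.0) in MetR_CE. MetR_RT and MetR_CE lay wholly above Ctrl_RT, and 1 Ctrl_CE library overlapped it. The increases were 2.36-fold (1.24 ± 0.17 SE, adjusted p = 1.92e-06), 1.902-fold (0.93 ± 0.17 SE, adjusted p = 0.000174) and 3.24-fold (1.70 ± 0.17 SE, adjusted p = 5.57e-09), and cold added to the diet (0.77 ± 0.16 SE, adjusted p = 0.000975 in MetR_CE against MetR_RT). The endothelial marker sums given for Gpihbp1 moved with Cd36 in liver as well, and their part was not tested. The liver response exceeded that of eWAT in all 3 comparisons, by 1.77 ± 0.19 SE, adjusted p = 2.58e-11 in MetR_CE.

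In fat, where Cd36 was among the abundant transcripts, its changes were smaller. iWAT rose from 1815 to 3158 CPM (median 2436) in Ctrl_RT to 3813 to 5084 CPM (median 3938) in MetR_CE, with no overlap (0.82 ± 0.15 SE, adjusted p = 5.5e-05). The single challenges were not called there (0.50 ± 0.14 SE, adjusted p = 0.00728 in Ctrl_CE, and 0.29 ± 0.14 SE, adjusted p = 0.150 in MetR_RT). In iBAT the cold increase separated the groups, with 1724 to 2048 CPM (median 1866) in Ctrl_RT and 2263 to 2728 CPM (median 2341) in Ctrl_CE, and was under the fold (0.35 ± 0.06 SE, adjusted p = 1.64e-05). No eWAT comparison was called. Within groups of iWAT, Cd36 varied with Lpl over 27 libraries (r = 0.83, rho = 0.89, and r = 0.85 without the 2 libraries farthest in Lpl), which share the library and the iWAT content of other cells.

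Vldlr, the receptor for triglyceride-rich lipoproteins that is normally scarce in hepatocytes, showed the largest change of the 7 genes in liver. It measured 0.580 to 1.66 CPM (median 0.896) in Ctrl_RT and 2.09 to 3.43 CPM (median 3.03) in Ctrl_CE. MetR_RT held 5.83 to 12.9 CPM (median 10.5) and MetR_CE 6.09 to 10.6 CPM (median 8.48). The 3 challenged groups lay wholly above Ctrl_RT and both MetR groups wholly above Ctrl_CE. The increases were 2.94-fold in Ctrl_CE (1.56 ± 0.22 SE, adjusted p = 3.76e-06), 10.3-fold in MetR_RT (3.36 ± 0.21 SE, adjusted p = 8.8e-13) and 8.79-fold in MetR_CE (3.14 ± 0.21 SE, adjusted p = 2.97e-12). Cold therefore raised Vldlr on the control diet and gave no further increase on the MetR diet (-0.23 ± 0.16 SE, adjusted p = 0.387), and the interaction was called (-1.79 ± 0.28 SE, adjusted p = 0.00174). Even at its highest, Vldlr in liver stayed under the fat depots, at 1.29 CPM per kb in MetR_RT against 18.01 in iBAT, 13.004 in iWAT and 4.89 in eWAT of the same group.

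In iWAT, Vldlr was called higher under each challenge. Ctrl_RT held 68.3 to 113 CPM (median 90.4), Ctrl_CE 98.7 to 207 CPM (median 164), MetR_RT 92.8 to 211 CPM (median 133) and MetR_CE 176 to 271.4 CPM (median 224). Only MetR_CE lay wholly above Ctrl_RT. The changes were 0.78 ± 0.17 SE, adjusted p = 0.00119 in Ctrl_CE, 0.67 ± 0.17 SE, adjusted p = 0.00591 in MetR_RT and 1.23 ± 0.18 SE, adjusted p = 5.73e-06 in MetR_CE. Without the libraries with muscle RNA the MetR_RT change was 0.47 ± 0.18 SE, adjusted p = 0.100, and no longer called. In iBAT the cold increase was under the fold (0.31 ± 0.10 SE, adjusted p = 0.0161), and no eWAT comparison was called. The MetR_RT response of liver exceeded those of iBAT, iWAT and eWAT, by 3.59 ± 0.26 SE, adjusted p = 1.67e-19, 2.73 ± 0.26 SE, adjusted p = 6.04e-14 and 3.61 ± 0.28 SE, adjusted p = 2.85e-18. The liver interaction also differed from that of each fat depot, by -1.99 ± 0.36 SE, adjusted p = 0.00107 from iBAT, -1.64 ± 0.36 SE, adjusted p = 0.00402 from iWAT and -2.32 ± 0.37 SE, adjusted p = 2.28e-05 from eWAT.

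Counted over the 6 tissue pairs of each gene, 42 in all, the cold response on the control diet differed between tissues in 22 (all genes 12.1%), the MetR_RT response in 15 (5.35%), the MetR_CE response in 26 (14.1%) and the interaction in 7 (1.08%), by the adjusted p alone. A limma fit with the mouse as a block gave 14, 13, 17 and 0, the last with 11 of 42 at an unadjusted p under 0.05. Of the 7 interaction differences 6 set liver apart from a fat depot and the other set iBAT apart from eWAT for Angptl8.

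Other genes of the pathway were counted in 6 lists that leave the 7 genes out. Among 12 secreted modulators of LPL and parts of its endothelial platform, liver showed Hspg2, which encodes the heparan sulfate proteoglycan perlecan, higher in Ctrl_CE (1.43 ± 0.10 SE, adjusted p = 1.31e-10). Apoa5, an LPL-promoting apolipoprotein, was higher in MetR_CE (0.75 ± 0.14 SE, adjusted p = 8.71e-05). In liver 1 of the 12 was called higher in Ctrl_CE and 2, Hspg2 and Apoa5, in MetR_CE (all liver genes 7.28% and 6.25%). In iBAT, Apoe, a ligand of lipoprotein receptors, was lower in all 3 comparisons (-0.82, -1.11 and -1.63), with 1, 0 and 1 called higher and 2, 3 and 4 lower of 11 tested (all iBAT genes 4.97%, 0.535% and 4.36% higher and 9.72%, 1.97% and 10.3% lower). Of the 9 factors of LPL folding and trafficking, Sorl1, a sorting receptor, was called higher with cold on the control diet in all 4 tissues (liver 0.98, iBAT 1.03, iWAT 1.36 and eWAT 1.93). In Ctrl_CE 3 of the 9 were called in liver (all genes 11.9%), 3 in iBAT (14.7%), 1 in iWAT (15.9%) and 1 in eWAT (2.42%). The liver chaperone gene Calr fell in Ctrl_CE (-0.83 ± 0.13 SE, adjusted p = 1.16e-05), and iBAT Calr and Canx rose (0.69 and 0.70).

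Among the 9 other lipases, of which 7 could be tested in each tissue, 2, 4, 1 and 2 were called with cold on the control diet in liver, iBAT, iWAT and eWAT (all genes 11.9%, 14.7%, 15.9% and 2.42%). Lipg, the endothelial lipase of the same gene family as LPL, rose in Ctrl_CE in liver (1.45 ± 0.44 SE, adjusted p = 0.0124), iBAT (2.48 ± 0.17 SE, adjusted p = 5.21e-12) and iWAT (1.14 ± 0.35 SE, adjusted p = 0.0140). In eWAT its interaction was -3.60 ± 0.95 SE, adjusted p = 0.0394. Of the 12 other lipoprotein receptors 4, 3 and 6 were called in liver in Ctrl_CE, MetR_RT and MetR_CE (all liver genes 11.9%, 6.91% and 13.5%). Scarb1, the receptor for high-density lipoprotein, fell in liver in Ctrl_CE and MetR_RT (-0.78 and -0.65). Lrp2 and Lrp1, large endocytic receptors, fell in liver in MetR_RT (-2.33 and -0.81). The sinusoidal scavenger receptors Stab1 and Stab2 rose in liver in the cold with the endothelial markers (0.92 and 0.97 in Ctrl_CE).

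Of 21 genes of fatty acid uptake and re-esterification, iWAT had 10 called higher and 1 lower with cold on the control diet, 6 and 1 under MetR_RT, and 9 and 1 when both were combined, where 5.99%, 4.25% and 8.05% of all genes were called higher. The list medians were 0.66, 0.43 and 0.52 on the log2 scale, against -0.11, -0.03 and -0.08 over all genes. Fabp3, a fatty acid carrier of oxidative tissues, led in iWAT (4.22 in Ctrl_CE, 4.22 in MetR_RT and 5.34 in MetR_CE), followed by Slc27a2 (2.79, 2.84 and 3.49), a fatty acid transporter and very-long-chain acyl-CoA synthetase, and Acsl5 (1.35, 1.60 and 2.06), an acyl-CoA synthetase. Muscle markers varied among the iWAT libraries, and their part in the Fabp3 values was not tested. In iBAT 7 were called higher and 3 lower in Ctrl_CE (all iBAT genes 4.97% and 9.72%), among them Acsl5 (1.03) and Dgat2 (-1.20), which makes triglyceride. In liver Fabp5, a fatty acid carrier, fell in MetR_RT (-2.84) and MetR_CE (-3.17).

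Of 22 regulators known to act on these genes, the coactivator gene Ppargc1a rose in Ctrl_CE in liver (1.13), iBAT (2.44) and iWAT (2.71). Ppara, the fatty acid-sensing receptor, rose in liver in Ctrl_CE and MetR_CE (1.33 and 1.53) and in iWAT in all 3 comparisons (1.37, 1.64 and 1.85), and Pparg, its adipogenic relative, rose in liver in MetR_RT (0.76 ± 0.12 SE, adjusted p = 2.39e-05). In all, 9, 7 and 10 of the 22 were called higher in iWAT in the 3 comparisons, with medians of 0.48, 0.27 and 0.53 (all iWAT genes 5.99%, 4.25% and 8.05%, medians -0.11, -0.03 and -0.08). In liver 4, 2 and 5 of 21 were called higher, with medians of 0.08, 0.15 and 0.05 (all liver genes 7.28%, 2.88% and 6.25%, medians -0.01, 0.005 and -0.04). In eWAT, the interaction was negative and called, as for Angptl8, for listed genes that included Sorl1 (-3.52), Lipg (-3.60), Acsl3 (-1.62), Srebf1 (-1.34), a lipogenic regulator, and Hif1a (-0.71), and positive for the lipase gene Pnpla2 (0.78). Over all eWAT genes 1.20% were called in the negative direction, a share that cannot be compared with genes named for the size of their change. These interactions rest on 4 Ctrl_RT libraries, and that of Angptl8 lost its call with all libraries (adjusted p = 0.277).

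For each of the 7 genes, the genes most alike over the libraries of the tissue where it was highest were listed by Pearson r of log2 CPM, groups included. For Vldlr in iBAT (26 libraries, 12685 genes) the first was Cd36 (r = 0.87), followed by a gene with no symbol and Lamb3 (both 0.86). Lpl in eWAT (24 libraries, 14476 genes) was closest to Isoc1 (0.89), Ginm1 (0.87) and Ttc7b (0.85), and Cd36 to Aifm2, Hsdl2 and Serinc1 (0.89, 0.89 and 0.88). Gpihbp1 in eWAT was closest to Arap3, Rasip1 and Lrp3 (each 0.88). Angptl4 in eWAT was closest to Idua, Osgin2 and Asph (0.88, 0.87 and 0.86), Lmf1 in iBAT to Hcn2, Osbpl9 and Fbxl16 (0.85, 0.81 and 0.81), and Angptl8 in liver (28 libraries, 12514 genes) to Gm8893, 2810410L24Rik and Hes1 (0.83, 0.82 and 0.79). These are the highest of many values over few libraries and are given as a description.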

How the data were processed

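RNA from liver, iBAT, iWAT and eWAT was sequenced in 50-base reads and the deposited values are raw gene counts, which the authors made from reads aligned to mm10 with STAR 2.7.9a. Both featureCounts 2.0.3 and Salmon 1.9.0 are named for counting, and which of them made the counts is not settled here. The submitters' notes also name DESeq2 1.46.0 and MultiQC 1.19. Symbols were found for 51948 of 56884 gene IDs.

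Genes with at least 10 counts in a tissue (liver 22143, iBAT 23915, iWAT 26428, eWAT 27786) were scaled by TMM and fitted in edgeR 4.0.16 (R 4.3.3) by the quasi-likelihood test with diet, temperature and their interaction, 1 model per tissue, and p-values were adjusted over all genes by Benjamini-Hochberg. Differences between tissues came from 1 edgeR fit over all 4, with 1 mean per tissue and group and no term for the mouse. The limma fit with the mouse as a block used 1 correlation of 0.033 for all genes. That is below the values given between fat depots for Angptl4 and Angptl8, so neither fit models their pairing by mouse. The libraries the study left out are not named in the labels and were identified by comparing group means of normalized counts with its published means. They were iBAT Ctrl_CE replicate 5, eWAT Ctrl_RT replicates 2, 4 and 5 and eWAT MetR_RT replicate 7. Replicates were separate mice, and the replicate numbers of different groups name different mice. In 3 iBAT libraries a sample tag names another group than the title, and the title was used. The mice named for these libraries belong to the group of the title in liver, iWAT and eWAT. Per-length levels used the union of annotated exons (GENCODE M21), which may not be the annotation of the counts, since 35 of the 56884 gene IDs carry its version. Alternatives were DESeq2 1.42.0 (unshrunken, or shrunken by apeglm 1.24.0), limma 3.58.1 and other scaling, filters, thresholds and libraries. The fits were tested on simulated counts. The 7 genes were named everywhere, and of each pathway list up to 4 called genes with a mean of at least 1 CPM per tissue and comparison, by size of change. Some genes of these lists are counted in them but not reported here by name. For each of the 7, the 3 most alike genes were named. Members and lists were chosen with earlier results of these data known.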

Additional observations from a re-analysis of the deposited data

Results flagged for a closer look

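In 7 of the 112 groups of libraries (7 genes, 4 tissues and 4 conditions) the highest library stood far from the rest of its group by Dixon's test, which chance alone passes in about 1 in 20 groups. These were Gpihbp1 in liver MetR_CE (21.1 CPM), Lmf1 in liver Ctrl_CE (48.5 CPM), Angptl8 in liver Ctrl_CE (146 CPM), Cd36 in iBAT Ctrl_CE (2728 CPM) and MetR_RT (1925 CPM), Angptl8 in iWAT Ctrl_RT (167 CPM) and Gpihbp1 in eWAT MetR_CE (202 CPM).

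The cold response differed between the diets, by the interaction term, for Vldlr in liver (-1.79) and Angptl8 in eWAT (-4.88).

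For each gene and comparison in which the responses of 2 tissues differed by the adjusted p, the pair with the largest difference was listed, as log2 values from the fit over all tissues. With cold on the control diet, liver exceeded eWAT for Angptl4 (1.59), Cd36 (1.60), Gpihbp1 (1.08) and Vldlr (1.79), was below eWAT for Angptl8 (-5.29), below iWAT for Lmf1 (-0.65) and below iBAT for Lpl (-1.81). In MetR_RT, liver exceeded eWAT for Cd36 (1.14) and Vldlr (3.61) and was below iWAT for Lmf1 (-0.80) and Lpl (-1.35), and iBAT was below iWAT for Gpihbp1 (-0.61). In MetR_CE, liver exceeded iBAT for Angptl4 (1.58) and eWAT for Cd36 (1.77) and Vldlr (3.08), was below eWAT for Angptl8 (-2.64), below iWAT for Lmf1 (-1.03) and below iBAT for Lpl (-2.46), and iWAT exceeded eWAT for Gpihbp1 (0.64). The interaction in liver was above that in eWAT for Angptl8 (5.05) and below it for Cd36 (-0.98), Gpihbp1 (-1.11) and Vldlr (-2.32).

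Libraries of challenged groups that were left out of the tests held some values above every kept Ctrl_RT library of their tissue and others below. The left-out Ctrl_RT libraries of eWAT are described further below. In iBAT Ctrl_CE replicate 5 the values above were Lpl at 8277 CPM, Gpihbp1 at 62.7 CPM, Cd36 at 2250.6 CPM and Vldlr at 254.1 CPM. Angptl4 in that library lay below every kept Ctrl_RT library, and Lmf1 and Angptl8 lay within the kept range. In eWAT MetR_RT replicate 7 only Lmf1 lay above, at 35.9 CPM. Lpl, Gpihbp1, Angptl4, Angptl8, Cd36 and Vldlr in that library all lay below every kept Ctrl_RT library.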

How the results depend on the processing

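Over 38 alternative settings and 2660 values of a gene, tissue and comparison, 2590 kept their side of the threshold (57 values outside it took the other sign), 51 lost the call, 19 gained it and 0 called values reversed. Testing against 1.5-fold itself (edgeR glmTreat) left 3 calls in Ctrl_CE, 1 in MetR_RT, 6 in MetR_CE, 0 of the interaction (3 of 28 at an unadjusted p under 0.05), 1 in MetR_CE against MetR_RT and 1 in MetR_CE against Ctrl_CE, because the same 1.5-fold must then be exceeded with confidence. The interaction had 4 calls with DESeq2 without shrinkage and 1 with all libraries. Tissue differences numbered 14 in Ctrl_CE, 17 in MetR_CE and 0 for the interaction in limma's voom with the mouse as a block, and 3 for the interaction with all libraries (the cause was not tested). Leaving out each of the 24 eWAT libraries, or the liver or iWAT library farthest in Angptl8 (chosen after seeing the data, as were the muscle settings), left 11 to 13 calls in Ctrl_CE, 5 in MetR_RT, 12 to 13 in MetR_CE, 6 in MetR_CE against MetR_RT, 3 in MetR_CE against Ctrl_CE and 2 to 3 interactions. The Angptl4 interaction in eWAT was called without any one of Ctrl_RT replicate 3, MetR_RT replicates 1 and 4, Ctrl_CE replicate 4 and MetR_CE replicate 1 (1.88 to 2.05). Replicate numbers did not pair the mice (median correlation of same-numbered libraries -0.005 to 0.11), and the replicate block gave 12, 6, 12 and 3 calls, adding Gpihbp1 in liver MetR_RT (0.59) and the Angptl4 interaction in eWAT (2.03, adjusted p = 0.0464). With all libraries the median log2 change of all eWAT genes in Ctrl_CE moved from -0.01 to -0.21. In eWAT only 4 Ctrl_RT libraries remained, which limits every comparison there.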

Other observations

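The 3 left-out Ctrl_RT libraries of eWAT (replicates 2, 4 and 5) were below all 4 kept ones for Lpl, Gpihbp1, Cd36 and Vldlr, on a normalization over all eWAT libraries. In these libraries adipocyte markers summed to 7285, 8418 and 6570.0 CPM against at least 8731 in every kept eWAT library, endothelial markers to 1016, 1215 and 836 CPM against at least 1274, and epididymal epithelium markers to 720.0, 383 and 232 CPM against at most 390.04, and the part of these markers was not tested. Their Lpl was 6247, 5823 and 6371 CPM against 9417 to 12501, and their Cd36 was 2657, 3209.6 and 2448 CPM against 3925 to 6081. Their Gpihbp1 was 57.4, 70.8 and 58.0 CPM against 96.4 to 133, and their Vldlr was 51.8, 63.9 and 41.9 CPM against 68.7 to 84.1. Angptl4 was below the kept libraries in replicates 2 and 5 (173 and 63.5 CPM) and within their range of 449.6 to 739 in replicate 4 (533). Angptl8 was above the kept range of 7.21 to 12.4 CPM in replicates 2 and 5 (16.4 and 156) and below it in replicate 4 (4.40). Lmf1 was below, within and above the kept range of 27.01 to 33.9 CPM (21.3, 30.9 and 41.2).

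Across tissues of the same mouse, with group means removed and left-out libraries included, Angptl8 had a Pearson r of 0.83 between liver and iBAT, 0.70 between liver and iWAT, 0.50 between liver and eWAT, 0.74 between iBAT and iWAT, 0.53 between iBAT and eWAT and 0.86 between iWAT and eWAT, over 26 to 28 mice. Angptl4 had an r of 0.67 between iBAT and iWAT, 0.44 between iBAT and eWAT and 0.89 between iWAT and eWAT, and of -0.09, 0.25 and 0.27 between liver and iBAT, iWAT and eWAT. These values are a description with no test, and the tissues of a mouse share its feeding and dissection.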
